A study of Mus musculus with 4 samples.

Results

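Laminins are large secreted glycoproteins of basement membranes, each built of 1 α, 1 β and 1 γ chain wound together in a coiled coil. The β and γ chains pair inside the cell and wait there for an α chain, which releases the trimer for secretion, and a trimer is named by the numbers of its chains, so that laminin-111 holds α1, β1 and γ1. Laminin-111 is the laminin of the first basement membranes of the mouse embryo and a major product of the primitive and parietal endoderm, while laminin-511 is known as an adhesive substrate of pluripotent stem cells. The transcripts described here are those of 9 laminin genes, Lama1 to Lama5 for the α chains, Lamb1 to Lamb3 for the β chains and Lamc1 for γ1. They were taken as all probe sets with a single gene symbol among these 9, which gave 17 of the 45101 probe sets on the array and 9 of 18193 named genes.

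RNA was measured on 4 expression arrays of mouse embryonic stem (ES) cells, 2 labelled SOCS3-null and 2 labelled wildtype. SOCS3 is an inhibitor of cytokine signalling, including that of leukemia inhibitory factor, and the labels' keywords also name endoderm, SHP2 and ERK1/2. The labels give no clone, passage, culture medium, feeder layer or design of the SOCS3 deletion, so it cannot be said whether the SOCS3-null arrays stand for 1 clone or several. Whether the 2 arrays of a genotype came from separate cultures is not labelled either, so p-values describe variation among these arrays that may be purely technical. In bulk RNA such as this, fewer cells of a type and less RNA per cell cannot be told apart.

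The deposited values are intensities on a linear scale, with array medians of 15.78 and 15.74 in SOCS3-null and 15.95 and 15.995 in wildtype cells. Tests were run with limma on log2(intensity + 16), and each change below is a difference on that scale, SOCS3-null minus wildtype, given with its standard error (SE). A gene was represented by its brightest probe set and called when its Benjamini-Hochberg adjusted p over all genes tested was below 0.05. Intensities of the brightest Socs3 probe set were 19.3 and 12.9 on the SOCS3-null arrays, against 3024 and 1884 on the wildtype arrays, in accord with the labels. The ES cell markers Dppa5a, Tdgf1 and Pou5f1, the brightest of the 12 read, were bright on all 4 arrays. Intensities of Pou5f1 were 11567 and 10524 in SOCS3-null cells and 10524 and 11675 in wildtype cells. Over the 12 markers the median change was -0.39, and 3 were called lower and 1 higher in SOCS3-null cells. Different probe sets hybridise with different strength, so the intensity of one laminin chain is not set against that of another below, and only changes are compared between chains.

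Of the 9 laminin genes, 8 lay above the filter on dim probe sets and were tested, and 4 of these rose in SOCS3-null cells: Lama1, Lamb1, Lamb2 and Lamc1. No laminin gene fell, and Lama2, Lama3, Lama4 and Lama5 did not pass the test. Over all 12732 genes tested, 22.7% were called and 13.1% were called higher in SOCS3-null cells. The median change of the 8 laminin genes was 1.04, beside a median of -0.01 over all genes tested, and it covers only the members above the filter; over all 9 it was 0.68. By probe set, 7 of the 14 laminin probe sets tested were called, where 15.9% of all probe sets tested were. The calls needed all 4 arrays: with any 1 array left out limma called 0 of the genes tested, and the adjusted p of these 4 laminin genes lay between 0.0601 and 0.157.

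**Figure D1:**
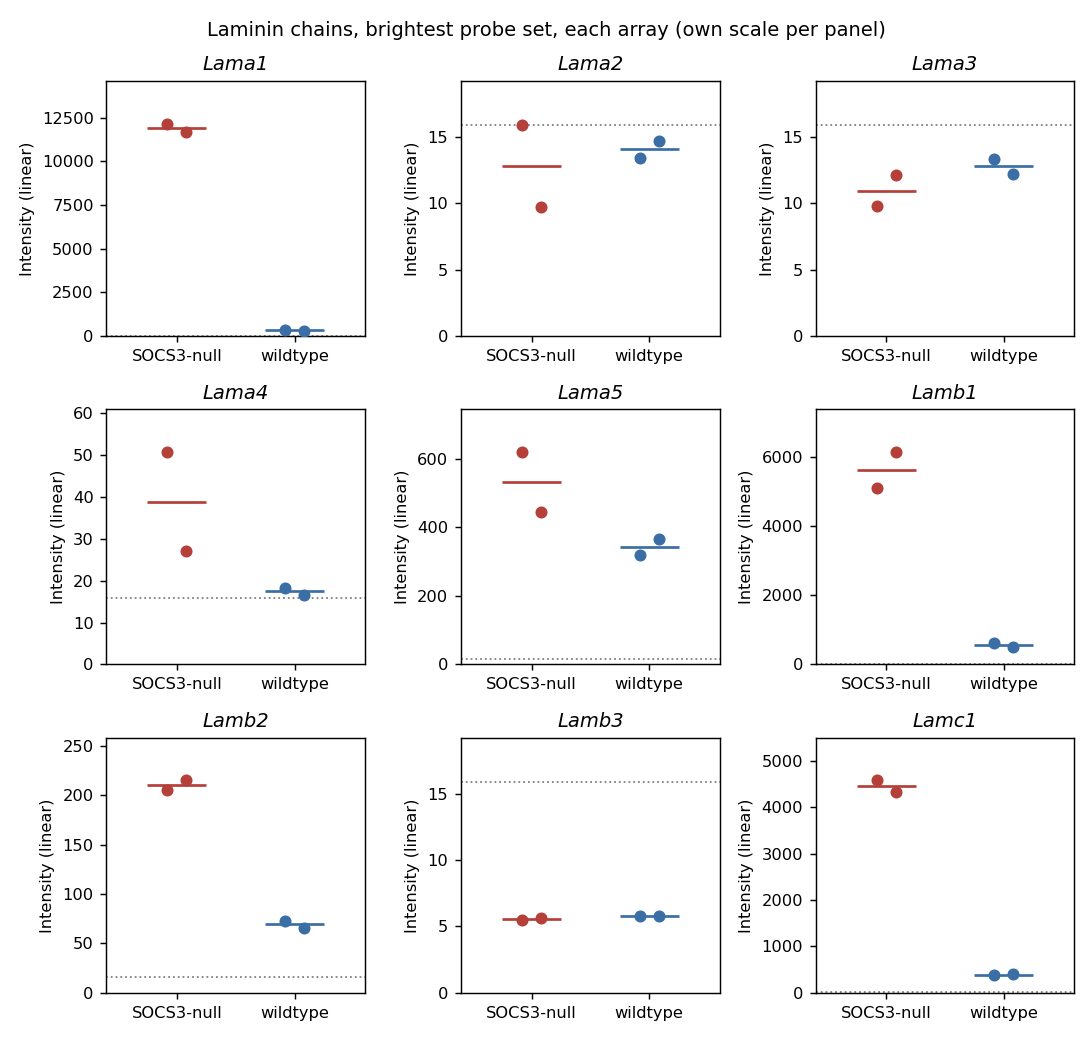
Intensity (linear, arbitrary units) of the brightest probe set of each laminin gene on each array, with SOCS3-null arrays at the left and wildtype arrays at the right of each panel; points are arrays, bars are means of 2 arrays and the dotted line is the median of a typical array. Each panel has its own scale. Lama1, Lamb1, Lamb2 and Lamc1 separate widely between genotypes, whereas Lama2, Lama3 and Lamb3 lie near or below the dotted line.

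Among the α chains, the one with the largest change was Lama1, which encodes the α1 chain. The intensity of its only probe set was 12157 and 11686 on the SOCS3-null arrays, against 329 and 313 on the wildtype arrays. The SOCS3-null values lay far above the wildtype values, and the arrays within each genotype lay close together. The means were 11921 ± 334 in SOCS3-null and 321 ± 11.3 in wildtype cells (SD, n = 2), a ratio of 37.1. The change was 5.15 (SE 0.08, limma adjusted p = 0.00357), which ranked 7 from the top among the 12732 genes tested. Wildtype cells were thus not without Lama1 signal, since their values stood well above the array medians.

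Lama5, which encodes the α5 chain of laminin-511 and laminin-521, was measured by 3 probe sets. The brightest gave 619 and 446 in SOCS3-null cells, against 318 and 365 in wildtype cells. Both SOCS3-null values were above both wildtype values, but the gap between the genotypes was smaller than the distance between the SOCS3-null arrays. The change was 0.60 (SE 0.19, 95% interval 0.06 to 1.15 without adjustment) and did not pass over all genes (limma adjusted p = 0.107). A second probe set of Lama5 gave 368 and 254 in SOCS3-null cells and 211 and 258 in wildtype cells, so that the genotypes overlapped. The third probe set of Lama5 lay between 8.65 and 8.91 on every array, below the filter.

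Lama4, which encodes the α4 chain found in vessel walls and other mesenchymal basement membranes, was dim. Its brighter probe set had intensities of 50.7 and 27.0 in SOCS3-null cells, against 18.4 and 16.6 in wildtype cells, so that wildtype cells lay near the array median. The change was 0.68 (SE 0.24, limma adjusted p = 0.128) and was 0.36 without SOCS3-null replicate 1. It also depended on the constant added before the logarithm, with 1.05 at a constant of 1 and 0.33 at a constant of 64. The other probe set of Lama4 read 5.40 and 5.64 in SOCS3-null cells and 5.64 and 5.48 in wildtype cells and was not tested.

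Lama2 and Lama3 encode the α2 chain of muscle and peripheral nerve and the α3 chain of surface epithelia. The Lama2 probe set gave 15.9 and 9.72 in SOCS3-null cells, against 13.4 and 14.7 in wildtype cells, with a change of -0.07 (95% interval -0.45 to 0.31, limma adjusted p = 0.764). The brighter Lama3 probe set gave 9.77 and 12.1 in SOCS3-null cells, against 13.3 and 12.2 in wildtype cells, with a change of -0.10 (95% interval -0.35 to 0.16, limma adjusted p = 0.503). All these values lay near or below the array medians, where the arrays give little information on differences. Some deposited values also repeat between arrays: 8945 probe sets carry the same value on at least 2 arrays, among them the dimmest probe sets of Lama4 and Lama5. Bright probe sets repeat as well, such as that of Agrn with 572 on SOCS3-null replicate 2 and wildtype replicate 2, and how such repeats arose was not tested.

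Among the β chains, Lamb1, which encodes β1, was measured by 4 probe sets. The brightest gave 5100 and 6140 in SOCS3-null cells, against 608 and 514 in wildtype cells. The means were 5620 ± 735 in SOCS3-null and 561 ± 66.3 in wildtype cells (SD, n = 2), a ratio of 10.02, and the change was 3.29 (SE 0.15, limma adjusted p = 0.00477). A second probe set read 4561 and 6150 in SOCS3-null cells, against 437 and 505 in wildtype cells, with a change of 3.45. The third read 2723 and 3291 in SOCS3-null cells, against 217 and 232 in wildtype cells, with a change of 3.65. These 3 probe sets were designed on the same source sequence according to the platform annotation, so they are not independent readings. On each of them the SOCS3-null arrays lay far above the wildtype arrays, and all 3 were called over all probe sets (limma adjusted p of 0.00847, 0.00918 and 0.0073). The fourth probe set of Lamb1 was dim, with 38.4 and 7.29 in SOCS3-null cells, against 5.94 and 5.88 in wildtype cells, and was not called (change 0.70, SE 0.45, limma adjusted p = 0.377). Its separation rested on SOCS3-null replicate 1.

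Lamb2, which encodes the β2 chain of neuromuscular and kidney basement membranes, also rose, by less than Lamb1. The intensity of its probe set was 205 and 215 in SOCS3-null cells, against 72.7 and 65.9 in wildtype cells. The 2 genotypes did not overlap, and the spread within each was small. The means were 210 ± 6.87 in SOCS3-null and 69.3 ± 4.79 in wildtype cells (SD, n = 2), a ratio of 3.03. The change was 1.41 (SE 0.09, limma adjusted p = 0.00661), with rank 446 among the genes tested. It ran from 1.04 to 1.59 with constants of 64 and 1 added before the logarithm.

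Lamb3 encodes β3, a chain of epidermal basement membranes. Its probe set read 5.51 and 5.66 in SOCS3-null cells, against 5.78 and 5.80 in wildtype cells, all far below the array medians, and was not tested. The γ3 gene Lamc3, not among the 9, lay between 4.50 and 7.05 on both of its probe sets.

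Lamc1 encodes γ1, the γ chain that nearly all trimers outside surface epithelia share. Its brighter probe set gave 4573 and 4319 in SOCS3-null cells, against 381 and 400 in wildtype cells. The means were 4446 ± 180 in SOCS3-null and 390 ± 12.9 in wildtype cells (SD, n = 2), a ratio of 11.4. The change was 3.46 (SE 0.08, limma adjusted p = 0.00357), with rank 38 among the genes tested, beside rank 51 for Lamb1. The second probe set read 994 and 1110 in SOCS3-null cells, against 116 and 135 in wildtype cells, with a change of 2.92 (SE 0.11, limma adjusted p = 0.00819). On both probe sets of Lamc1 the SOCS3-null arrays lay far above the wildtype arrays.

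**Figure D2:**
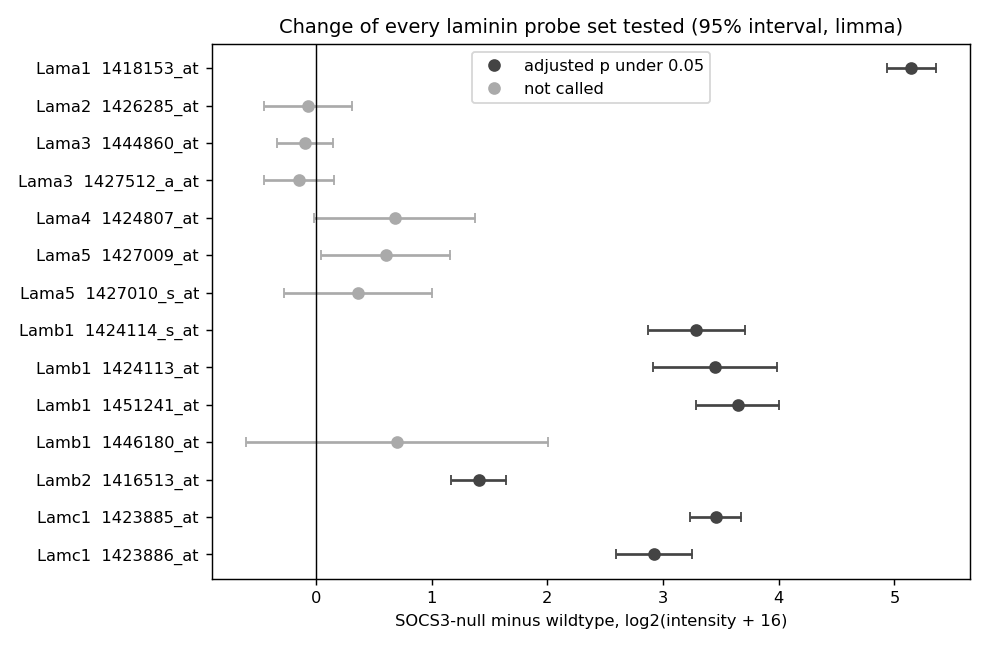
Change of each laminin probe set tested, SOCS3-null minus wildtype on the log2(intensity + 16) scale, with 95% intervals from limma over 2 arrays per genotype; dark points were called over all probe sets and grey points were not. The 7 called probe sets belong to Lama1, Lamb1, Lamb2 and Lamc1, and the dim probe set of Lamb1 has the widest interval.

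The changes were then set against each other within arrays. The log2 ratio of the Lama1 to the Lama5 signal was 4.26 and 4.66 in SOCS3-null cells, against 0.05 and -0.21 in wildtype cells, so the balance moved toward α1 by 4.54 (SE 0.24). The log2 ratio of Lamb1 to Lamb2 was 4.53 and 4.74 in SOCS3-null cells, against 2.81 and 2.69 in wildtype cells, a move toward β1 of 1.88 (SE 0.12). A ratio between 2 probe sets has no meaning as an amount, and only its difference between genotypes is read here. In neither ratio did the genotypes overlap. An exact two-sided permutation test over 4 arrays cannot give a p below 0.333, which is the value both ratios reached (0.50 after adjustment over the 6 ratios computed).

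Within the chains of laminin-111, Lama1 changed by more than Lamb1 and Lamc1. The ratio of Lama1 to Lamb1 differed between genotypes by 1.86 (SE 0.18) and that of Lama1 to Lamc1 by 1.69 (SE 0.07), and in both the SOCS3-null arrays lay above the wildtype arrays (exact permutation p = 0.333 each, the smallest possible). The ratio of Lamb1 to Lamc1 was 0.16 and 0.51 in SOCS3-null cells, against 0.65 and 0.35 in wildtype cells. Here the genotypes overlapped, and the difference of -0.17 (SE 0.23) was smaller than its error (exact permutation p = 0.667). The β1 and γ1 transcripts thus had changes that these arrays did not separate. For Lama4 against Lama5 the difference was 0.08 (SE 0.16, exact permutation p = 0.667).

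To ask which trimer these changes would favour, the 10 combinations of an α chain with β1 or β2 and with γ1 were ordered by the chain that changed least. Laminin-111 came first: its lowest chain was Lamb1 with 3.29, next to 3.46 for Lamc1 and 5.15 for Lama1, and all of its chains were called. Laminin-121 came second with 1.41, set by Lamb2, and it was the other combination whose 3 chains were all called. In laminin-411 and laminin-421 the lowest chain was Lama4 with 0.68, and in laminin-511 and laminin-521 it was Lama5 with 0.60, neither of them called. In laminin-211 and laminin-221 the lowest chain was Lama2 with -0.07, and in laminin-311 and laminin-321 it was Lama3 with -0.10. The first 2 kept this order in all 11 alternatives tried for it. Some of these could not change their order: other filters left the values at 3.29 and 1.41, and median centring moves every chain by the same amount. Lama4 and Lama5 changed places with a constant of 64, without SOCS3-null replicate 1 and without wildtype replicate 2. The value for laminin-111 was 2.77 when probe sets of a gene were averaged, where the dim Lamb1 probe set counts as much as the bright ones. In the same setting the value was 0.34 for laminin-411, set by Lama4, and 0.32 for laminin-511, set by Lama5. These averages include the probe sets of Lama4 and Lama5 below the filter. Averaged over tested probe sets only, the change was 0.68 for Lama4 and 0.48 for Lama5. The order speaks of transcript changes, and neither trimer assembly nor protein was measured.

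**Figure D3:**
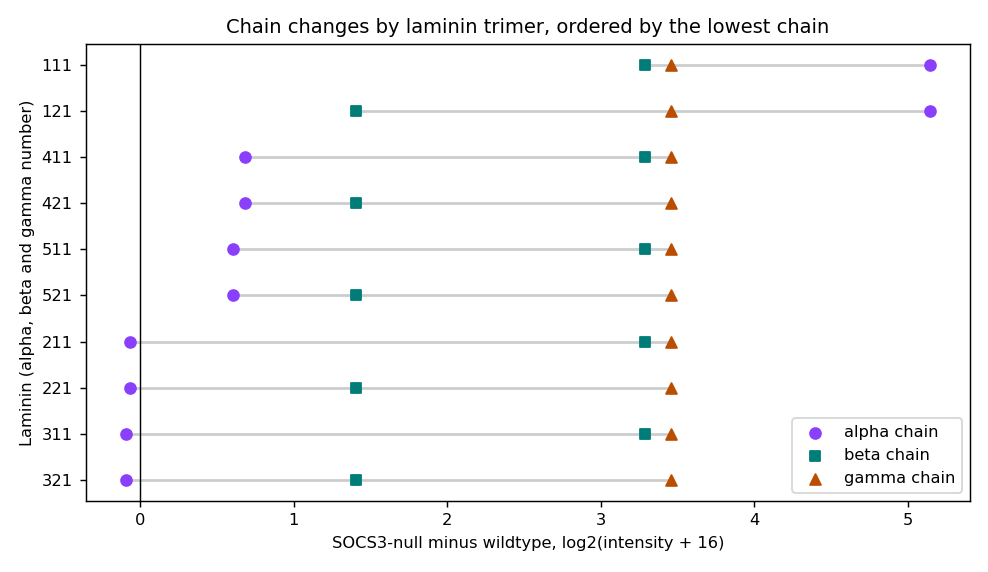
Change of the α, β and γ chain transcripts (SOCS3-null minus wildtype, log2(intensity + 16), brightest probe set of each gene) for each of 10 laminin trimers, ordered from top to bottom by the lowest chain; the grey line spans the chains of a trimer. Laminin-111 has all chains above 3, and the α chain is the lowest in every trimer with α2, α3, α4 or α5.

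Promoter sequences were found for 5 of the 9 genes in the RefSeq promoter table (GRCm38.p6). The stretches before the annotated starts of Lamb1, Lamb2 and Lama5 are shown. They belong to a chain that rose strongly, one that rose less and one that was not called. Other entries were not shown, among them any with too few bases before the annotated start of the gene. Capitals mark matches on either strand. The motifs searched were GATAA for the core of GATA factor sites, ACAAT for the core of SOX factor sites, TATAA for the box of that name, GGGCGG for the GC box and TTCNNNGAA for the palindrome of STAT factors. Lamb1 lies at chr12:31265043-31265145 (plus strand), Lamb2 at chr9:108479612-108479846 (plus strand) and Lama5 at chr2:180225905-180226109 (minus strand), each written 5′ to 3′ in the direction of transcription.
Lamb1: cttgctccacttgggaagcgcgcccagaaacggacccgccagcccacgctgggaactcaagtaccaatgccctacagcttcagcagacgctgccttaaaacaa
Lamb2: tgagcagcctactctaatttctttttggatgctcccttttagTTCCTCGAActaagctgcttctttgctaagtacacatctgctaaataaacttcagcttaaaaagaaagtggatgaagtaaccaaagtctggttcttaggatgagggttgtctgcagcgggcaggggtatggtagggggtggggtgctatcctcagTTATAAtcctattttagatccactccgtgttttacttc
Lama5: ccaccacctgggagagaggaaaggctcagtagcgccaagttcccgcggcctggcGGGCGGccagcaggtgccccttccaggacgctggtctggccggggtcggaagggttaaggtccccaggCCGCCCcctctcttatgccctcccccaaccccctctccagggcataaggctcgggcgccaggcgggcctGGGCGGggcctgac

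The search covered the 250 bases before the transcript start, which run on past the stretch shown for Lamb1, Lamb2 and Lama5. Positions count from the transcript start and not from the end of the stretch shown. Lamb1 had 2 GC boxes, both beyond the stretch shown, and no match to the other motifs. Lama5 had 4 GC boxes, 3 of them in the stretch shown. Lamb2 had a TTCNNNGAA match from -208 to -200. It also had a pair of overlapping TATAA matches on opposite strands that together span -53 to -48. Windows of 250 bases with at least 1 match made up 32.7% of all 32851 promoters for GGGCGG, 7.02% for TTCNNNGAA, 22.8% for TATAA, 22.6% for GATAA and 27.7% for ACAAT. The share of G and C was 62.0% for Lamb1, 43.6% for Lamb2 and 72.4% for Lama5. A match is a description of letters and not of factor binding, and the absence of one says only that these letters are not in this window.

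The genes whose profile over the 4 arrays lay nearest to that of Lama1 were Sox17, a transcription factor of endoderm, Col4a1, a chain of type IV collagen, and Pdgfra, the receptor for platelet-derived growth factor. Their distances, taken over centred log2 values, were 0.21, 0.21 and 0.23, and Col4a1 read 11771 and 12552 in SOCS3-null cells against 293 and 330 in wildtype cells. Nearest to Lamb1 were the transcription factor Sox7 (0.07), the lysosomal protease Lgmn (0.11) and Eva1a (0.14), and nearest to Lamc1 were Phlda1 (0.10), Amot (0.17) and the collagen chaperone Serpinh1 (0.21). Nearest to Lama5 were Nt5c3b, Spns1 and Plekho2, with distances of 0.07, 0.08 and 0.09, of which none was called. With only 4 arrays in 2 genotypes such a distance mostly reflects the size of the change. The choice depends on the scale: with a constant of 1 added before the logarithm, 1 of the 3 genes nearest to Lama1 and 1 of the 3 nearest to Lamb1 remained. Sox17 and Sox7 were dim in wildtype cells, with 4.51 and 4.08 for Sox17 and 12.2 and 9.30 for Sox7. Their ratios of mean intensities were 150 for Sox17, against 37.1 for Lama1, and 23.3 for Sox7, against 10.02 for Lamb1.

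The laminin network is joined to type IV collagen by nidogens and perlecan. Of 10 partner genes of the basement membrane tested, 4 rose and 1 fell, with a median change of 0.65. Col4a1 and Col4a2 rose by 5.22 and 4.39, the matricellular gene Sparc by 2.996 and Hspg2, which encodes perlecan, by 2.42 (limma adjusted p of 0.00357, 0.00459, 0.00542 and 0.00818). Col18a1, which encodes the collagen that endostatin is cut from, fell with a change of -1.85. Nid1, whose product binds the γ1 chain, read 792 and 1219 in SOCS3-null cells, against 494 and 491 in wildtype cells, and did not pass (change 0.97, limma adjusted p = 0.0576). Both SOCS3-null values of Nid1 were above both wildtype values, with a gap between the genotypes smaller than the distance between the SOCS3-null arrays, and Nid1 was called in 5 of the 12 alternatives that used all 4 arrays.

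Several receptors of laminin also rose. Of 12 genes tested from a list of receptors that also holds the tetraspanin Cd151, 9 rose, 0 fell and 3 did not pass. Their median change was 0.84, and over all genes tested 13.1% were called higher. The heparan sulfate proteoglycan Sdc4 rose by 3.12 and Sdc1 by 1.18, the tetraspanin Cd151 by 1.06, and the integrin subunits Itga6, Itga3 and Itgb1 by 1.01, 0.98 and 0.62. Itga6 read 1243 and 1678 in SOCS3-null cells, against 669 and 747 in wildtype cells, and pairs with Itgb1 in the integrin that binds laminin-111 and laminin-511. Dag1, which encodes dystroglycan and is named outside the rule with its value known, rose by 0.39 (limma adjusted p = 0.0483) and was called in 2 of the 12 alternatives that used all 4 arrays, with an adjusted p of up to 0.104 among them. All of these calls except Sdc4 had a limma adjusted p between 0.0139 and 0.0483, and the count of receptors that rose was 2 without the filter on dim probe sets and 6 with the replicate number as a block. Of 12 listed genes that glycosylate dystroglycan for laminin binding, 8 had a probe set of their own and were tested. Of these 1 rose and 0 fell, a count near the 13.1% of all genes called higher. The gene that rose was Pomt2, with 49.8 and 44.0 in SOCS3-null cells, against 23.3 and 24.3 in wildtype cells. That call was lost with the replicate number as a block.

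Among netrins, proteins whose amino-terminal part resembles the short arms of laminin chains, Ntn1 fell (change -2.48, SE 0.42, limma adjusted p = 0.0297). Its intensities were 39.8 and 10.6 in SOCS3-null cells, against 234 and 170 in wildtype cells. Ntn4, which binds laminin γ chains, did not pass (change 0.18), and the other 4 netrins lay below the filter. The fall of Ntn1 was not called without the filter.

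**Figure D4:**
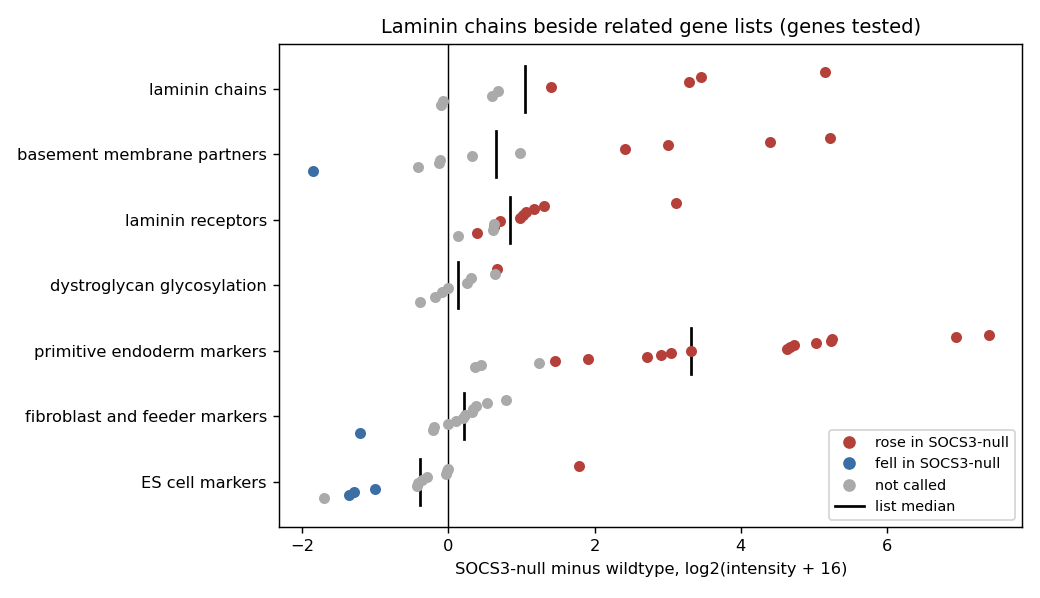
Change (SOCS3-null minus wildtype, log2(intensity + 16)) of each gene tested in the laminin list and in related gene lists; red points rose, blue points fell, grey points were not called and black lines are list medians. The primitive endoderm markers run from 0.36 to 7.39 with a median of 3.32, a range that also holds the uncalled Lama4 and Lama5. On this scale Lama1 and Lamc1 lie above that median, Lamb1 just below it and Lamb2 below every endoderm marker that rose. These places depend on the scale. The marker at the median, Sox7, had a ratio of mean intensities of 23.3, against 11.4 for Lamc1. In the alternatives that used all 4 arrays Sox7 ran from 2.07 to 4.43 and Lamc1 from 3.19 to 3.51. Plat, the lowest marker that rose, ran from 0.86 to 1.89 and Lamb2 from 1.04 to 1.59. The receptors lie mostly between 0 and 1.5.

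Markers of other cells were read beside the laminin genes. Of 17 primitive endoderm markers tested 14 rose and 0 fell, and their summed intensity was 21741 and 25754 in SOCS3-null cells, against 1093 and 1344 in wildtype cells. The brightest were Srgn, Cubn and Krt18, and their part in the laminin result was not tested. Of 12 ES cell markers 3 fell (Sox2, Fgf4 and Nr0b1) and 1 rose (Tbx3), with summed intensities of 70233 and 66684 in SOCS3-null cells and 82536 and 82944 in wildtype cells. Of the 12 alternatives that used all 4 arrays, Nr0b1 and Tbx3 were called in 12, Sox2 in 9 and Fgf4 in 8. Fibroblasts and feeder cells also make laminin chains, among them α4, β1 and γ1. Of 12 fibroblast and feeder markers tested 0 rose and 1 fell (Tgfbi). Their summed intensity overlapped between genotypes, with 3996 and 2598 in SOCS3-null cells and 2416 and 4033 in wildtype cells. It was higher on SOCS3-null replicate 1 and wildtype replicate 2 within each genotype, as was the summed intensity of the muscle markers, with 2505 and 1570 in SOCS3-null cells and 1365 and 2340 in wildtype cells. The brightest probe sets of Lama2, Lama5 and Lamc1 had this order of arrays, and those of Lama1, Lama3, Lama4, Lamb1, Lamb2 and Lamb3 did not. The part of such cells in the laminin values was not tested.

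Of 6 endothelial markers tested 3 rose (Cdh5, Tek and Esam) and 1 fell (Vwf), with summed intensities of 448 and 442 in SOCS3-null cells and 276 and 263 in wildtype cells. Of 4 muscle markers tested Des rose, and Myod1, Myog, Ckm and Chrna1 lay below the array median on every array. Of 3 markers of stratified epithelium tested none was called, and Krt15, Trp63, Col17a1 and Itgb6 lay below the median on every array, as did Lama3 and Lamb3.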

How the data were processed

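The authors deposited 1 table of intensity values on a linear scale for 4 arrays. How probe signals were summarised and normalized is not given in the sources used here. Array medians and upper quartiles (114 to 119) were nearly equal, so values were used as deposited, which hides any change in total RNA per cell. After removal of 64 control probe sets, the 27022 whose mean log2(intensity + 16) reached the 40th percentile (an intensity of about 10.4) were tested with lmFit and eBayes of limma 3.58.1 in R 4.3.3, with genotype as the only term. Genes came from the platform annotation (34945 probe sets with 1 symbol), and the fit per gene covered 12732 genes. p-values were two-sided and Benjamini-Hochberg adjusted over all genes, or over all probe sets where said. The procedure was tested on simulated data.

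The members, the gene lists and the tests were chosen with earlier results of these data known. Named genes were all members, Lamc3, Socs3, the genes of smallest p or opposite call in the partner lists, the brightest or called markers, and the 3 nearest profiles of Lama1, Lamb1, Lamc1 and Lama5. Alternatives were other constants (1 and 64), normalizations, filters, eBayes settings, a replicate block, averaging over probe sets, and leaving out single arrays. Promoters came from RefSeq, and figures were drawn with matplotlib 3.10.9. The number of arrays limits the precision.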

Additional observations from a re-analysis of the deposited data

How the results depend on the processing

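The calls of Lama1, Lamb1, Lamb2 and Lamc1 held in all 12 alternatives that used the 4 arrays, with changes of 4.96 to 5.21, 2.77 to 3.32, 1.04 to 1.59 and 3.19 to 3.51. With any 1 array left out limma called 0 laminin genes and 0 genes in all; the lone array was assumed to vary like the other genotype, and 4 to 6 laminin genes then had an unadjusted p under 0.05. Adjusted p for these 4 genes was 0.0601 to 0.0605 without SOCS3-null replicate 1, 0.0683 without SOCS3-null replicate 2, 0.157 without wildtype replicate 1 and 0.137 without wildtype replicate 2, and the fits have fewer samples by construction. Lama2 differed by -0.223 to 0.086 with an array left out, so it has no direction, and Lama5 by 0.37 to 0.83.

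The value for laminin-111 was 2.77 with the mean of probe sets and 3.15 to 3.42 with an array left out. The shift from α5 to α1 ran from 4.34 to 4.83 and that from β2 to β1 from 1.36 to 2.14. The value of 4.83 came with the mean of probe sets, which there included the Lama5 probe set below the filter. Over all genes, 2888 were called, against 1631 without the filter and 1914 with the replicate block; the block left 4 laminin genes called. Samples with the same replicate number deviated from their group means with a correlation of -0.118 across probe sets, and with the wildtype numbers crossed, a setting chosen after seeing the data, 2817 genes and 5 laminin genes were called, Lama5 being the fifth (adjusted p = 0.0475). The filter at the 60th percentile left Lama2, Lama3 and Lama4 untested. Dim chains are limited by signal near the array medians.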
